A study of Mus musculus with 56 samples.

Results

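The metallothioneins Mt1, Mt2 and Mt3, the zinc-sensing transcription factor Mtf1 and the zinc transporters Slc30a1, Slc30a3 and Slc39a10 were followed across the day in the anterior hypothalamus of mice whose food was restricted to the day (DRF) or to the night (NRF). These 7 genes, of 17564 listed by NCBI Gene ID, were chosen by name after the daily profiles of Mt1 and Mt2 had been seen to lie almost opposite under the 2 regimens. The daily profiles of Mt1 and Mt2 are therefore described without a test, and tests are given for other measures and for the other 5 genes. RNA was sequenced from the anterior hypothalamus of 56 female C57BL/6J mice, aged 9 weeks at sampling and fed chow on either regimen for 7 days in a light:dark cycle of 12 h each. DRF mice could eat from ZT0 (lights on) to ZT12 (lights off) and NRF mice from ZT12 to ZT0. In each regimen 4 separate mice were sampled every 4 h from ZT0 to ZT24, which gave 14 groups and 28 mice per regimen. No mouse fed without restriction was part of the comparison, and each value is of a whole dissected tissue, in which fewer cells of a type and less RNA per cell cannot be told apart.

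Metallothioneins are small, cysteine-rich proteins that bind zinc and copper and buffer their free concentration. Mt1 and Mt2 are present in most tissues, in the brain mainly in astrocytes, and their transcription responds to zinc, glucocorticoids and oxidative stress, whereas Mt3 is largely a brain form that responds little to zinc. Free zinc binds the factor MTF1, encoded by Mtf1, which then binds metal response elements (MREs) in promoters such as those of Mt1, Mt2 and Slc30a1. Zinc leaves the cytosol through ZnT proteins (Slc30 family), of which Slc30a1 exports it across the plasma membrane and Slc30a3 loads synaptic vesicles of glutamatergic neurons, and it enters through ZIP proteins (Slc39 family), of which Slc39a10 is a plasma membrane importer.

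The metallothionein genes lie side by side on chromosome 8 of GRCm38.p6. Mt3 is at chr8:94152607-94154148, Mt2 at chr8:94172618-94173567 and Mt1 at chr8:94178883-94180327, with 18469 bases between Mt3 and Mt2 and 5315 bases between Mt2 and Mt1. Mtf1 is at chr4:124802549-124849800, Slc30a3 at chr5:31086106-31108244, and chromosome 1 holds Slc30a1 at chr1:191906697-191913248 and Slc39a10 at chr1:46807544-46925776. The 250 bases before the RefSeq start site are shown for the 3 members best known as targets of MTF1, 5′ to 3′ on the strand of the gene, with matches to the MRE core in capitals. The stretches are chr8:94178839-94179088 for Mt1, chr8:94172368-94172617 for Mt2 and chr1:191906531-191906780 for Slc30a1, each on the plus strand. The windows of Mt1 and Slc30a1 reach past the first base of the listed gene, since the start site in the promoter table lies inside it.
Mt1: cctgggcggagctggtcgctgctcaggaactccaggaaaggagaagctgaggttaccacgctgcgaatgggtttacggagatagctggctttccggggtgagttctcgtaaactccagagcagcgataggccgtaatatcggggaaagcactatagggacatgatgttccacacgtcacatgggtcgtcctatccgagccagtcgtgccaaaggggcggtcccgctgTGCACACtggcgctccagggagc
Mt2: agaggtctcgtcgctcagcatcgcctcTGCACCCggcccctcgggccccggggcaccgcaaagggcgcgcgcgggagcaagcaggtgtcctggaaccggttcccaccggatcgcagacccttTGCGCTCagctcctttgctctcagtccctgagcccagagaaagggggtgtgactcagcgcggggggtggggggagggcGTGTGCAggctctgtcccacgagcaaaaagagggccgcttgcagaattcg
Slc30a1: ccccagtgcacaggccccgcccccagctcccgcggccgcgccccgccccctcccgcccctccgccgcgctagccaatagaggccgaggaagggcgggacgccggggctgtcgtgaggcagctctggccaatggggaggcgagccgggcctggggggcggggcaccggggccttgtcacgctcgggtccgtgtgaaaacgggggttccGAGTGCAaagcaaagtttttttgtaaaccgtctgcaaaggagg
The core was searched as TGCACNC or TGCGCNC on both strands, and matches did not overlap each other. Mt2 held 3 matches, starting 223, 128 and 50 bases before the start site, Mt1 held 1 at 23 bases and Slc30a1 held 1 at 43 bases. Bases after the start site were not searched, so the lower count of Mt1 than of Mt2 depends on where each window ends. Slc30a3 held 1 match at the first of its 2 listed start sites, and Mt3, Mtf1 and Slc39a10 held none. Of 32851 mouse promoter windows of this length, 21.4% held at least 1 match and 1.26% held at least 3, so that 1 match was common and 3 were rare. The E-box CACGTG, which clock factors bind and 6.02% of windows held, was in none of the 7 genes' windows. The glucocorticoid receptor half-site AGAACA (16.1% of windows) was found in Mtf1 and Slc30a3, and the antioxidant response element core TGACNNNGC (10.2%) in Mt2 and Slc30a1. These matches are descriptions of the letters and not sites of binding.

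Per length, Mt2 and Mt1 were the most abundant of the 7 transcripts. The mean level over all mice was 184 CPM (reads scaled to a common library size) per kilobase for Mt2, 177 for Mt1, 115 for Mt3, 24.8 for Slc39a10, 6.97 for Slc30a1, 3.81 for Mtf1 and 2.0 for Slc30a3. In DRF Mt2 was at 195 ± 60.3 (SD, n = 28) and Mt1 at 188 ± 33.8 CPM per kilobase. In NRF Mt2 was at 173 ± 46.9 and Mt1 at 165 ± 32.0. Both genes were read in the same mice, and these SDs include the daily cycle, over which their proportion changed (below). The 2 means were therefore not compared by a test. The annotated length used for Mt1, 1246 bases, was longer than the 588 bases of Mt2 and 1066 bases of Mt3, and the order of these levels depends on those lengths. Levels are given below in CPM. The fewest reads in any mouse were 4268 for Mt1, 1891 for Mt2 and 91 for Slc30a3.

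The libraries were alike in depth, with a normalized size of 29591266 to 34493344 reads, and the correlation between mice of the same group was 0.984 to 0.998 across genes. Replicates 3 and 4 of DRF at ZT16 stood apart, with a median correlation with the other libraries of 0.989 and 0.985 and a steeper relation of expression to GC content, and where a call of the 7 genes changed without them, the value without them is given too. Of the markers of the anterior hypothalamus, Avp, Oxt and Vip were present in all mice, with medians of 186, 287 and 13.3 CPM in DRF. Markers of red blood cells were higher in DRF. In the mean level 5 of 5 passed in limma, beside 5.63% of all genes that passed as higher. The 5 mark the same cells and are not independent calls. Their sum had a median of 441 CPM against 313 CPM in NRF. The sum of 6 markers of choroid plexus and ependyma was 65.4 to 98.7 CPM in DRF and 58.1 to 87.8 CPM in NRF. Ttr reached 13.9 CPM and Folr1 1.15 CPM. Without the 2 libraries 0 of the 6 passed in the mean level, beside 10.4% of all genes.

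Mt1 was highest at ZT0 and ZT20 in DRF and at ZT12 and ZT8 in NRF. The other dawn in DRF, ZT24, was lower, with a mean of 224 ± 22.8 CPM (SD, n = 4). At ZT0 the 4 DRF mice were at 289, 246, 268 and 318 CPM and the 4 NRF mice at 197, 206, 158 and 197 CPM. At ZT4 the values were 207, 269, 211 and 216 CPM in DRF and 220, 228, 206 and 173 CPM in NRF. At ZT8 they were 252, 186, 191 and 186 CPM in DRF and 226, 270, 231 and 256 CPM in NRF. The regimens thus stood apart at ZT0, with DRF higher, and overlapped at ZT4 and ZT8. At ZT12 the DRF mice were at 172, 186, 208 and 196 CPM and the NRF mice at 273, 255, 248 and 246 CPM, the only time point at which all DRF mice were below all NRF mice. At ZT16 the values were 217, 218, 264 and 269 CPM in DRF and 216, 234, 218 and 223 CPM in NRF. Through the late night the order turned to DRF above NRF without overlap. At ZT20 the DRF mice were at 271, 300, 321 and 208 CPM and the NRF mice at 167, 194, 146 and 168 CPM. At ZT24 the values were 241, 245, 209 and 200 CPM in DRF and 142, 179, 146 and 141 CPM in NRF. The 4 and 4 mice did not overlap in 14.5% of all 16026 tested genes at ZT0, 14.1% at ZT4, 9.72% at ZT8, 6.35% at ZT12, 7.97% at ZT16, 8.22% at ZT20 and 7.72% at ZT24. From the highest to the lowest group mean, Mt1 ranged 1.47-fold in DRF, from 280 ± 30.8 (SD, n = 4) at ZT0 to 190.5 ± 15.0 CPM at ZT12, and 1.68-fold in NRF, from 256 ± 12.1 at ZT12 to 152 ± 18.3 CPM at ZT24.

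Mt2 was likewise higher in DRF late in the night and at dawn and higher in NRF at ZT12, and its range was wider. At ZT0 the DRF mice were at 144, 113, 144 and 161 CPM and the NRF mice at 95.6, 97.9, 76.5 and 100 CPM. At ZT4 they were at 62.9, 91.9, 65.9 and 70.6 CPM in DRF and 109, 128, 113 and 91.3 CPM in NRF, so that the mean in DRF was now below that in NRF, with the highest DRF mouse just above the lowest NRF mouse. At ZT8 the values were 82.4, 73.7, 79.4 and 74 CPM in DRF and 129, 144, 120 and 149 CPM in NRF, with every DRF mouse lower. At ZT12 they were 90.5, 87.2, 102 and 94.2 CPM in DRF and 139, 125, 150 and 128 CPM in NRF, also without overlap. The order reversed after lights off. At ZT16 the DRF mice were at 116, 113, 139 and 135 CPM and the NRF mice at 94.2, 104, 93.8 and 96 CPM. The largest separation of the series for Mt2 was at ZT20, where the DRF mice were at 151, 178, 196 and 118 CPM and the NRF mice at 65.5, 72.1, 59.8 and 68.3 CPM. At ZT24 the values were 130, 158, 113 and 120 CPM in DRF and 74.5, 88.9, 66.2 and 63 CPM in NRF. The difference between group means on the log2(CPM + 1) scale was 1.24 at ZT20, with DRF higher, and -0.80 at ZT8, with DRF lower. Of the 7 time points, DRF was above NRF without overlap at 4, below it at 2 and overlapped it at ZT4 alone.

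**Figure D1:**
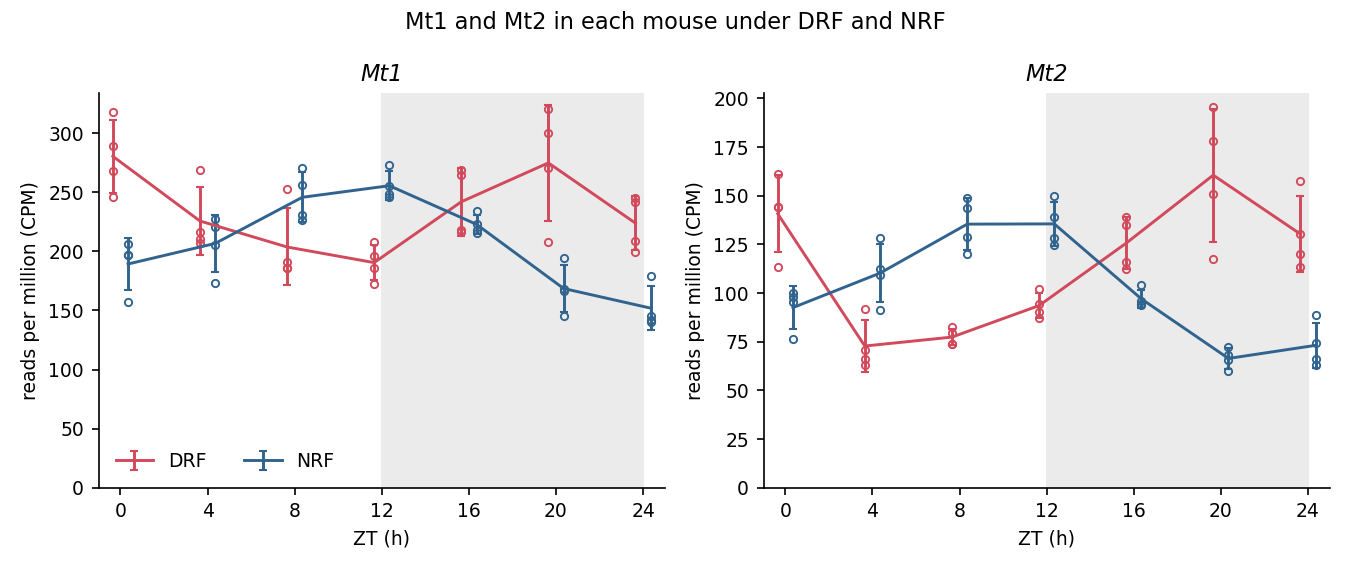
Mt1 and Mt2 in CPM (from 0) against zeitgeber time in hours. Circles are single mice, lines and bars the mean ± SD of 4 mice, and grey marks the dark period. The red (DRF) and blue (NRF) profiles cross between ZT0 and ZT8 and again between ZT12 and ZT20 in both genes.

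Fitted with a cosine of 24 h on the log2(CPM + 1) scale, Mt1 peaked at ZT21.2 ± 0.911 h (SE, n = 28) in DRF and at ZT10.5 ± 0.525 h in NRF, a shift of 10.7 ± 1.05 h. Mt2 peaked at ZT19.7 ± 0.390 h in DRF and at ZT9.10 ± 0.390 h in NRF, a shift of 10.6 ± 0.552 h. The feeding windows differed by 12 h. Since these profiles chose the genes, the distance of the shifts from 12 h was not tested. Counted from the time at which food became available, Mt1 peaked at 21.2 h in DRF and 22.5 h in NRF, and Mt2 at 19.7 h and 21.1 h, in both regimens late in the fast. The amplitude of Mt1 was 0.23 ± 0.054 in DRF and 0.33 ± 0.042 in NRF, and that of Mt2 was 0.57 ± 0.064 in DRF and 0.50 ± 0.051 in NRF. Over all 16245 transcripts the median amplitude was 0.06 in DRF and 0.07 in NRF. Without the mice of ZT24 the shift was 11.6 h for Mt1 and 10.7 h for Mt2, and the amplitude of Mt1 was 0.28 in each regimen. Without the 2 libraries that stood apart the shifts were 11.4 h and 10.6 h.

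**Figure D2:**
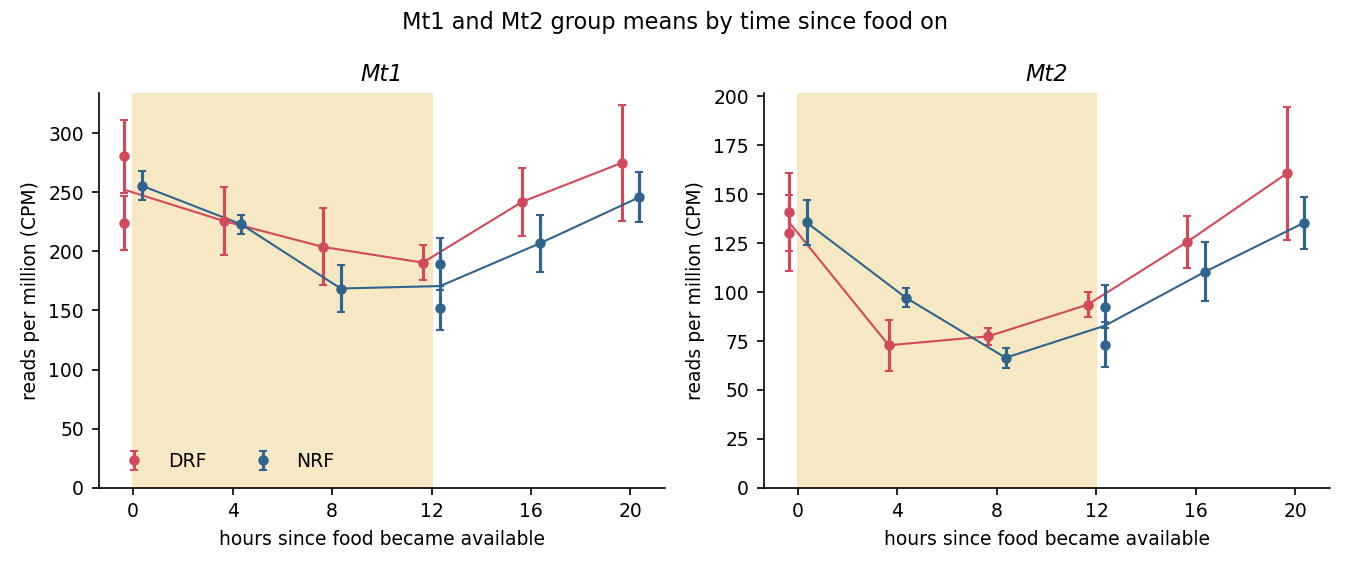
Group means ± SD (n = 4 mice) of Mt1 and Mt2 in CPM (from 0) against hours since food became available, with the feeding window shaded and lines joining the means. Where ZT0 and ZT24 fall on the same hour both groups are drawn and the line passes through their mean. On this axis the DRF and NRF profiles run side by side, with the lowest means between 4 and 12 h for both genes.

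No rhythm test is given for Mt1 and Mt2, whose profiles chose the genes. Of the other 5 genes, 4 passed the rhythm test (JTK_CYCLE and Lomb-Scargle combined, Benjamini-Hochberg adjusted p under 0.05) in NRF and 0 in DRF, beside 30.7% and 1.03% of 16245 transcripts.

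The 2 genes did not keep a fixed proportion through the day. Mt2 reads per Mt1 read ranged in DRF from 0.321 ± 0.0167 (SD, n = 4) at ZT4 to 0.582 ± 0.0247 at ZT20, and in NRF from 0.396 ± 0.0178 at ZT20 to 0.551 ± 0.0297 at ZT8. At ZT4 the highest ratio among the 4 DRF mice was 0.342 and the lowest among the 4 NRF mice 0.495. Mt1 peaked after Mt2 by 1.59 h in DRF and 1.43 h in NRF. The ratio itself peaked at ZT18.7 ± 0.478 h (SE) in DRF and ZT6.95 ± 0.401 h in NRF, a shift of 11.8 ± 0.624 h, so that counted from food onset its peak lay at 18.7 h and 18.95 h.

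Some markers of astrocytes, the main source of Mt1 and Mt2 in brain, varied more singly than as a sum. Gfap was 112 to 225 CPM in DRF and 104 to 203 CPM in NRF. Aqp4 was 84.2 to 170 CPM in DRF and 121 to 189 CPM in NRF. The summed level of 9 astrocyte markers was 3501 to 4157 CPM in DRF and 3441 to 3900 CPM in NRF. At ZT20, where Mt2 was furthest apart, their sum was 3725 to 4157 CPM in DRF and 3645 to 3770 CPM in NRF. At that time 1 of the 9, Aldh1l1, was higher in DRF by limma, beside 1.14% of all genes that passed. The part of the astrocyte markers in the profiles of Mt1 and Mt2 was not tested.

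Whether the mean level over the day differed was asked with limma, as the mean of the 7 DRF groups minus the mean of the 7 NRF groups on the log2(CPM + 1) scale. Mt1 was higher in DRF by 0.19 ± 0.042 (SE; 95% interval 0.11 to 0.28, adjusted p = 0.00336) and Mt2 by 0.16 ± 0.046 (adjusted p = 0.0228). In this contrast 10.6% of 16026 genes passed, 5.63% higher in DRF and 4.93% lower. Dawn enters it both as ZT0 and as ZT24, times at which both genes were higher in DRF in all mice, so the contrast is not free of their daily pattern. With dawn counted once, a weighting chosen after seeing the data, Mt1 was higher by 0.13 ± 0.044 (adjusted p = 0.0413) beside 11.9% of all genes, and Mt2 differed by 0.07 ± 0.048, which did not pass (adjusted p = 0.401). Without ZT24 neither gene passed, with 0.13 for Mt1 (adjusted p = 0.0544) and 0.05 for Mt2 (adjusted p = 0.588). The call of Mt1 was also lost without replicate 3 of every group (0.15, adjusted p = 0.0903), and that of Mt2 without replicate 1, 3 or 4 or without the 2 libraries that stood apart (0.14, adjusted p = 0.0523). The red blood cell markers named above were likewise higher in DRF, and of the 9 astrocyte markers 2 were higher (Aldh1l1 and Sox9) and 1 lower (Aqp4), or 3 and 2 without the libraries that stood apart. The part of these in the values of Mt1 and Mt2 was not tested.

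Of the other 5 genes, 0 passed this test in limma with all groups weighted alike, and 1 (Slc30a3) had an unadjusted p under 0.05. The difference of Slc30a3 was -0.18 ± 0.063 (adjusted p = 0.0560), and it passed with dawn counted once (-0.21 ± 0.065, adjusted p = 0.0298), without ZT24 (-0.22, adjusted p = 0.0350) and without the 2 libraries that stood apart (-0.20, adjusted p = 0.0320). The 95% interval of the difference was -0.13 to 0.13 for Mt3, -0.01 to 0.06 for Mtf1, -0.11 to 0.01 for Slc30a1 and -0.10 to 0.02 for Slc39a10. With dawn counted once the interval of Slc30a1 was -0.14 to -0.01, and its difference of -0.08 ± 0.032 did not pass (adjusted p = 0.0948).

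Mice sampled at ZT24 and at ZT0 stood at the same point of the cycle on different days. The log2 difference of Mt1, ZT24 minus ZT0, was -0.32 ± 0.112 in DRF (limma, adjusted p = 0.155) and -0.32 ± 0.112 in NRF (adjusted p = 0.107). Mt2 differed by -0.11 ± 0.123 in DRF (adjusted p = 0.719) and -0.34 ± 0.123 in NRF (adjusted p = 0.112). Of the 7 members 0 passed in either regimen, beside 0.493% of genes in DRF and 2.11% in NRF. Slc39a10 differed by 0.26 in DRF (adjusted p = 0.1204) and passed without the 2 libraries that stood apart (adjusted p = 0.0141) and with the GC trend of each library removed (0.25, adjusted p = 0.0116). An unadjusted p under 0.05 was seen for 2 members in DRF (Mt1 and Slc39a10) and 2 in NRF (Mt1 and Mt2), and the unadjusted 95% interval of Mt1 was -0.55 to -0.10 in DRF and -0.54 to -0.09 in NRF.

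Within a group, mice with more Mt1 also had more Mt2. After removal of each group's mean, the deviations of the 56 mice had a Pearson r of 0.873 and a Spearman rho of 0.871 (permutation test within groups, two-sided p = 1e-05, the smallest that 100000 permutations can give, adjusted p = 4.9e-04 over 49 pairs), with the same sign in 49 of 56 mice. The correlation was 0.877 without the 2 mice farthest from the median, 0.867 without the 2 libraries that stood apart, 0.885 in DRF alone and 0.852 in NRF alone. Adjacent genes read from the same library share its depth and RNA quality. The spread itself was similar for the 2 genes, with a within-group SD of 0.19 for Mt1 and 0.20 for Mt2 in DRF and 0.14 and 0.16 in NRF. Neither gene passed with the mean of the astrocyte markers, with r = 0.106 for Mt1 (permutation test, adjusted p = 0.718) and r = 0.114 for Mt2 (adjusted p = 0.718), or with that of the glucocorticoid-responsive genes, with r = 0.110 (adjusted p = 0.783) and r = 0.278 (adjusted p = 0.279). A p over the threshold does not show that these relations are absent.

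Mt3, the brain form, had a flatter daily profile than its neighbours. In NRF its fitted peak lay at ZT10.2 ± 2.47 h (SE, n = 28), near that of Mt1 at ZT10.5. The amplitude there was 0.10 ± 0.058, against 0.33 for Mt1. In DRF the fitted peak of Mt3 lay at ZT15.4 ± 3.07 h, with an amplitude of 0.09 ± 0.072. Its group means ranged from 105 ± 14.5 to 146 ± 46.3 CPM, the DRF and NRF mice overlapped at all 7 time points, and it passed the rhythm test in neither regimen (adjusted p = 1 in each). Its highest group, DRF at ZT16, held 108, 105, 193 and 180 CPM, the last 2 values being those of the libraries that stood apart. Without these libraries the fitted amplitude in DRF was 0.03, against 0.10 in NRF. From mouse to mouse Mt3 covaried with Mt1, with r = 0.444 and rho = 0.482 (permutation test, adjusted p = 0.0246 for r), a call that was lost without the libraries that stood apart (r = 0.369, adjusted p = 0.0985) and without replicate 1, 2 or 3. With Slc30a1 its correlation was negative, r = -0.668 and rho = -0.551 (adjusted p = 0.00229), and -0.534 without the libraries that stood apart (adjusted p = 0.0109). That correlation was -0.667 in DRF and -0.668 in NRF alone, and it did not pass in DRF alone (adjusted p = 0.173) or without replicate 4 (r = -0.591, adjusted p = 0.136).

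**Figure D3:**
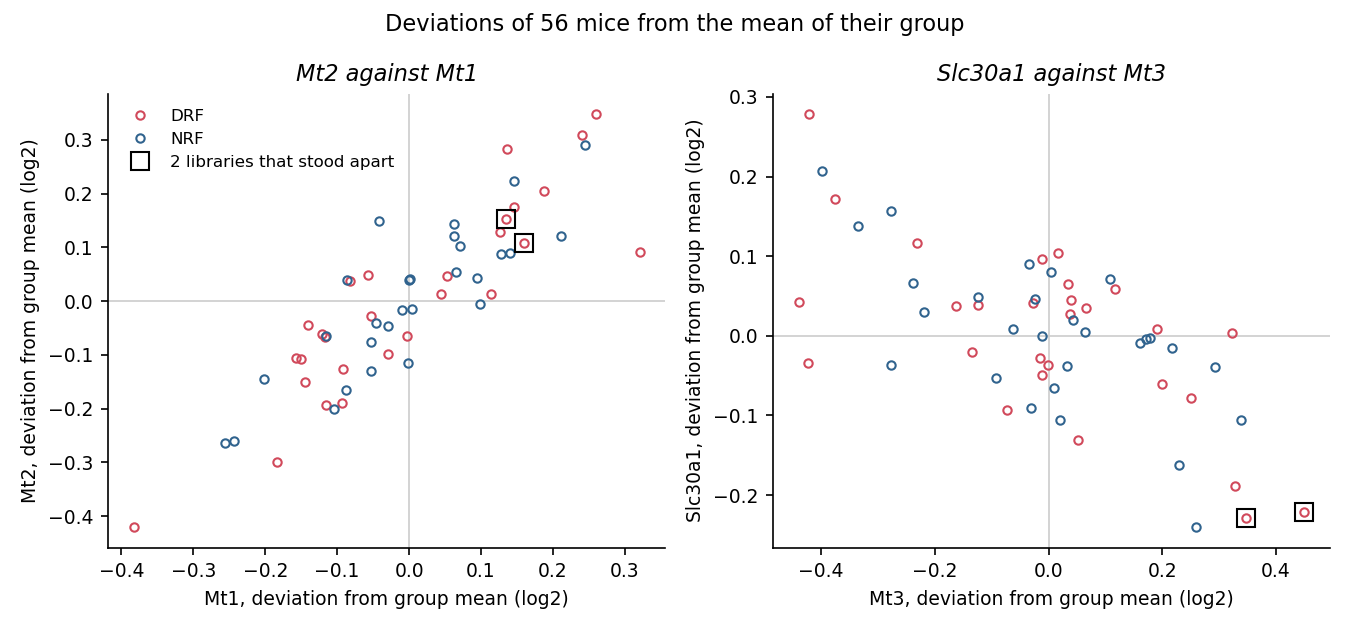
Deviation of each of 56 mice from the mean of its group on the log2(CPM + 1) scale, for Mt2 against Mt1 (left) and Slc30a1 against Mt3 (right), with red for DRF, blue for NRF and squares for the 2 libraries that stood apart. The points of the left panel lie along a rising line (r = 0.873), and those of the right panel fall from upper left to lower right (r = -0.668), with both squares at the lower right end.

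Mtf1, the zinc sensor, kept a narrow range. Its lowest and highest mice were 29.3 and 37.7 CPM, and the regimens overlapped at all 7 time points. It was rhythmic in NRF (adjusted p = 1.56e-04), with an amplitude of 0.10 ± 0.020 (SE) and a peak at ZT16.9 ± 0.686 h, and did not pass in DRF (adjusted p = 1, amplitude 0.02). The highest group in NRF was ZT16, at 37.2, 37.2, 35.2 and 36.6 CPM, and the lowest was ZT4, at 29.4, 30.1, 32.5 and 31.5 CPM. The difference in rhythm between the regimens did not pass the F test in limma (adjusted p = 0.146). Its deviations followed the mean of 14 glucocorticoid-responsive genes, with r = 0.403 (permutation test, adjusted p = 0.0344), although not by rank (rho = 0.386, adjusted p = 0.0607). That call was lost without any 1 of the 4 replicates (adjusted p from 0.109 to 0.371), without the 2 libraries that stood apart (adjusted p = 0.0985) and within each regimen alone.

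Slc30a1, the zinc exporter of the plasma membrane and a target of MTF1, was lower in DRF than in NRF at ZT4. At that time the DRF mice were at 28.9, 29.1, 30.9 and 29.7 CPM and the NRF mice at 32.3, 40.3, 37.3 and 44.4 CPM. All 4 DRF mice lay below all 4 NRF mice, a log2 difference of -0.36 ± 0.082 (limma, adjusted p = 0.00866) beside 3.94% of all genes that passed at ZT4 and 1.13% that passed with DRF lower. The call was lost without replicate 2, 3 or 4 of every group, with adjusted p from 0.0519 to 0.117. Red blood cell markers also differed at ZT4, where 5 of 5 were higher in DRF and their sum was 488 to 2378 CPM against 234 to 301 CPM, and their part in this result was not tested. At ZT12 the values were 34.1, 36.0, 34.0 and 29.0 CPM in DRF and 36.8, 39.2, 44.3 and 38.6 CPM in NRF, which did not overlap but did not pass (adjusted p = 0.0998). It passed without the 2 libraries that stood apart, which belong to another time point but enter the estimate of the spread (-0.25, adjusted p = 0.0271), and with the GC trend removed (-0.24, adjusted p = 0.0358). At ZT0, in contrast, the DRF mice were at 42.9, 37.3, 39.2 and 40.1 CPM, all above the NRF mice at 35, 36.2, 32.9 and 36.3 CPM, and this difference did not pass either (adjusted p = 0.235). Slc30a1 was rhythmic in NRF (adjusted p = 0.00479, amplitude 0.12 ± 0.033, peak ZT7.05 ± 0.908 h), a call lost without replicate 2, 3 or 4, without ZT24 (adjusted p = 0.0550) and by the cosine fit in limma (adjusted p = 0.118). In DRF it did not pass (adjusted p = 1, amplitude 0.11 ± 0.056). The test of the difference in rhythm gave an adjusted p of 0.110 with all mice and 0.0206 without the 2 libraries that stood apart. In these libraries Slc30a1 was 24.8 and 24.7 CPM, against 32.9 and 35.5 CPM in the other mice of DRF at ZT16. Fitted with all mice, the DRF peak lay at ZT0.07 ± 2.27 h (SE), a shift from NRF of -6.98 ± 2.44 h. Without these libraries the DRF peak lay at ZT20.3 ± 1.93 h, with an amplitude of 0.10 ± 0.049. The shift was then -10.7 ± 2.13 h, or 1.29 h counted from food onset. These shifts were not tested, and the rhythm in DRF did not pass in either setting.

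Slc30a3, which fills synaptic vesicles with zinc, had the lowest level of the 7 genes, and its largest differences between regimens were at ZT12 and ZT16. At ZT16 the DRF mice were at 5.92, 3.83, 4.74 and 7.71 CPM and the NRF mice at 6.75, 6.21, 9.31 and 10.5 CPM. The groups overlapped, and the log2 difference of -0.50 ± 0.166 passed (limma, adjusted p = 0.0298) beside 20.2% of all genes at ZT16, 13.5% with DRF lower. That was 3245 genes, against 33 without the 2 libraries that stood apart. Without these libraries the difference was -0.64 and did not pass (adjusted p = 0.177), nor did it without replicate 2, 3 or 4. At ZT12 the DRF mice were at 5.43, 4.52, 4.39 and 4.15 CPM and the NRF mice at 7.19, 6.64, 8.15 and 5.47 CPM, without overlap, and the difference did not pass (adjusted p = 0.123). In NRF the gene was rhythmic (adjusted p = 0.0189), with an amplitude of 0.26 ± 0.060 and a peak at ZT13.7 ± 0.957 h, a call lost without replicate 1, 2 or 3 and without ZT24 (adjusted p = 0.147). In DRF it did not pass (adjusted p = 1, amplitude 0.03 ± 0.074). Between the regimens its rhythm did not pass as different with all mice (limma F test, adjusted p = 0.0655), and it passed (adjusted p = 0.0292) without the 2 libraries that stood apart. Slc30a3 followed markers of cortical and hippocampal glutamatergic neurons from mouse to mouse, with r = 0.530 and rho = 0.519 (permutation test, adjusted p = 0.00172), and r = 0.490 in DRF and 0.611 in NRF alone. It did not pass in DRF alone (adjusted p = 0.173), without replicate 4 (r = 0.434, adjusted p = 0.177) or on the deposited values (r = 0.162, adjusted p = 0.533). The sum of these 7 markers at ZT16 was 645 to 913 CPM in DRF and 763 to 819 CPM in NRF. At that time 1 of the 7 was higher in DRF (Neurod6, 0.75 ± 0.229, limma, adjusted p = 0.0183) and 1 lower (Tbr1, -0.97 ± 0.274, adjusted p = 0.0118), and 0 passed without the 2 libraries that stood apart. Their part in the difference at ZT16 was not tested.

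Slc39a10, a zinc importer, had the lowest rhythm p of the other 5 genes in NRF and was there high when Mt1 was low. In NRF it was lowest at ZT8, at 144, 132, 134 and 129 CPM, and highest at ZT24, at 174, 170, 170 and 186 CPM. It was rhythmic in NRF (adjusted p = 5.87e-08, amplitude 0.20 ± 0.020, peak ZT21.4 ± 0.411 h) and did not pass in DRF (adjusted p = 1, amplitude 0.02 ± 0.041). The difference in rhythm passed the F test in limma (adjusted p = 0.0226) beside 11% of 16026 genes. That call was lost without any 1 of the 4 replicates, with adjusted p from 0.0509 to 0.125, and held without the 2 libraries that stood apart (adjusted p = 0.00117), in which Slc39a10 was 114 and 116 CPM against 174 and 163 CPM in the other mice of DRF at ZT16. Without them the fitted amplitude in DRF was 0.08.

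At ZT0 Slc39a10 was lower in DRF. The DRF mice were at 130, 138, 135 and 133 CPM and the NRF mice at 168, 160, 160 and 157 CPM, a log2 difference of -0.26 ± 0.078 (limma, adjusted p = 0.0389) beside 4.5% of genes, 2.13% with DRF lower. This call was lost without any 1 of the 4 replicates (adjusted p from 0.0755 to 0.202), without ZT24 (adjusted p = 0.0603) and on the deposited values (adjusted p = 0.147). Of 5 endothelial markers, 2 were also lower in DRF at ZT0, and their sum was 149 to 158 CPM against 165 to 175 CPM. Their part in this result was not tested. At ZT24, the other dawn, the values were 150, 161, 163 and 167 CPM in DRF and 174, 170, 170 and 186 CPM in NRF, which did not overlap and did not pass (adjusted p = 0.740).

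**Figure D4:**
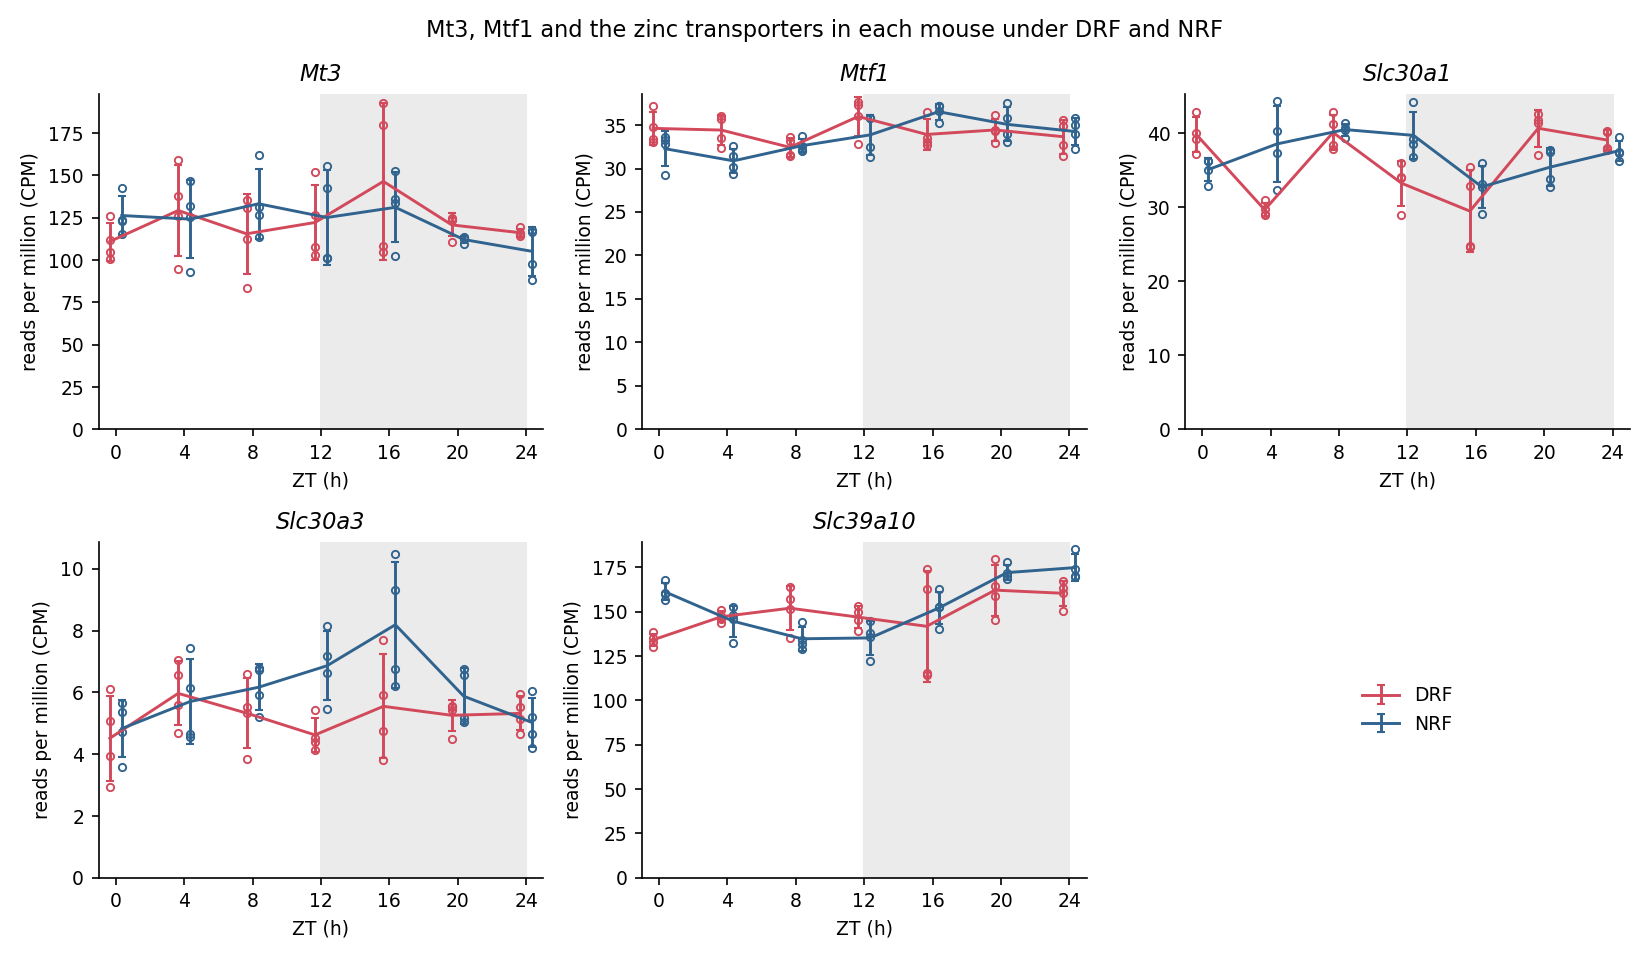
Mt3, Mtf1, Slc30a1, Slc30a3 and Slc39a10 in CPM (from 0) against zeitgeber time in hours, drawn as for Mt1 and Mt2, with circles for single mice, mean ± SD of 4 mice and grey for the dark period. Red (DRF) lies below blue (NRF) for Slc30a1 at ZT4, and 2 of 4 DRF mice at ZT16 lie apart from the other 2 in Mt3, Slc30a1 and Slc39a10.

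In all, 3 of 35 tests of these 5 genes over the 7 time points passed, each with DRF lower. They were Slc39a10 at ZT0, Slc30a1 at ZT4 and Slc30a3 at ZT16, where 2.13%, 1.13% and 13.5% of all genes passed with DRF lower. Each of the 3 calls was lost without replicate 2, 3 or 4. Other settings gained calls in limma beside that of Slc30a1 at ZT12. Without replicate 1, Slc30a1 (-0.27, adjusted p = 0.0256) and Slc39a10 (-0.27, adjusted p = 0.00993) passed at ZT16, beside 31% of all genes. The DRF group there still held the 2 libraries that stood apart, in which both genes were lowest. With the GC trend removed, Mtf1 passed at ZT4 (0.16, adjusted p = 0.0463), beside 7.61% of all genes. At ZT8, where 0.175% of genes passed, ZT12 (1.5%), ZT20 (1.14%) and ZT24 (0.275%), 0 of the 5 genes passed in limma. At those times the genes with an unadjusted p under 0.05 were Slc39a10 at ZT8, Slc30a1 and Slc30a3 at ZT12, Slc30a1 at ZT20 and none at ZT24. Across the 14 group means, Mt1 and Mt2 had a Pearson r of 0.83 with each other. With Mt1 the correlation was 0.43 for Mt3, 0.01 for Mtf1, 0.18 for Slc30a1, 0.15 for Slc30a3 and -0.71 for Slc39a10. With Mt2 it was 0.33 for Mt3, -0.13 for Mtf1, 0.40 for Slc30a1, -0.01 for Slc30a3 and -0.55 for Slc39a10. Slc39a10 was thus the member with the most negative value against both. These are descriptions over 14 points that share libraries and were not tested.

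Among genes outside the 7, the group means most like those of Mt1 were of Dcxr (r = 0.881), a carbonyl reductase, Mocs1 (0.860), which takes part in molybdenum cofactor synthesis, Fbxo17 (0.852), Cyp2d22 (0.850), a cytochrome P450, and Pik3ip1 (0.844), an inhibitor of phosphatidylinositol 3-kinase. Those most like Mt2 were of Fbxo17 (0.882), Pik3ip1 (0.881), Sec16b (0.878), Hmgb2 (0.861), a chromatin protein, and Cpt1a (0.856), which admits long-chain fatty acids to mitochondria. Fbxo17 and Pik3ip1 were on both lists. These genes were picked as the highest of 16026 over 14 points, and no relation to Mt1 or Mt2 was tested. Their group means spanned 0.26 to 0.59 on the log2 scale, against 0.88 for Mt1 and 1.24 for Mt2. Some were low, with a mean of 0.97 CPM for Sec16b, 2.46 for Fbxo17 and 4.64 for Dcxr.

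Of 24 ZnT and ZIP genes, 23 passed the filter on low values, and 20 of these lay outside the members. In the mean level 1 of 23 was higher in DRF (Slc39a14, 0.08 ± 0.025, limma, adjusted p = 0.0301) and 1 was lower (Slc39a12, -0.07 ± 0.022, adjusted p = 0.0253), with a median of -0.01 beside -0.0023 over all genes, of which 5.63% passed as higher and 4.93% as lower. Without the 2 libraries that stood apart these were Slc39a14 and, as lower, Slc30a3, beside 10.4% of all genes in either direction. In rhythm, 6 of 23 passed in NRF, beside 30.7% of all transcripts, and 1 of 23 in DRF (Slc39a8), beside 1.03%. Without these libraries the counts were 6 and 0, beside 30.7% and 1.08%. Outside the members, those that passed in NRF were Slc39a2 (amplitude 0.34), Slc39a11 (0.15) and Slc30a9 (0.03), with peaks at ZT19.6, ZT7.57 and ZT16.6. The difference in rhythm (limma F test) passed for 3 of 23, beside 11% of all genes. They were Slc39a10, Slc39a2 (adjusted p = 0.00309) and Slc30a4 (adjusted p = 0.0372). Without the libraries it passed for 4, Slc39a10, Slc39a2, Slc30a1 and Slc30a3, beside 10.6% of all genes. Slc39a2 was also lower in DRF at ZT0, by -0.45 ± 0.106 (adjusted p = 0.00653). At ZT16, 5 of 23 were lower in DRF, namely Slc30a3, Slc30a4, Slc30a5, Slc30a9 and Slc39a8, beside 13.5% of all genes. Without the 2 libraries 0 of 23 passed there, beside 0.206% of all genes.

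**Figure D5:**
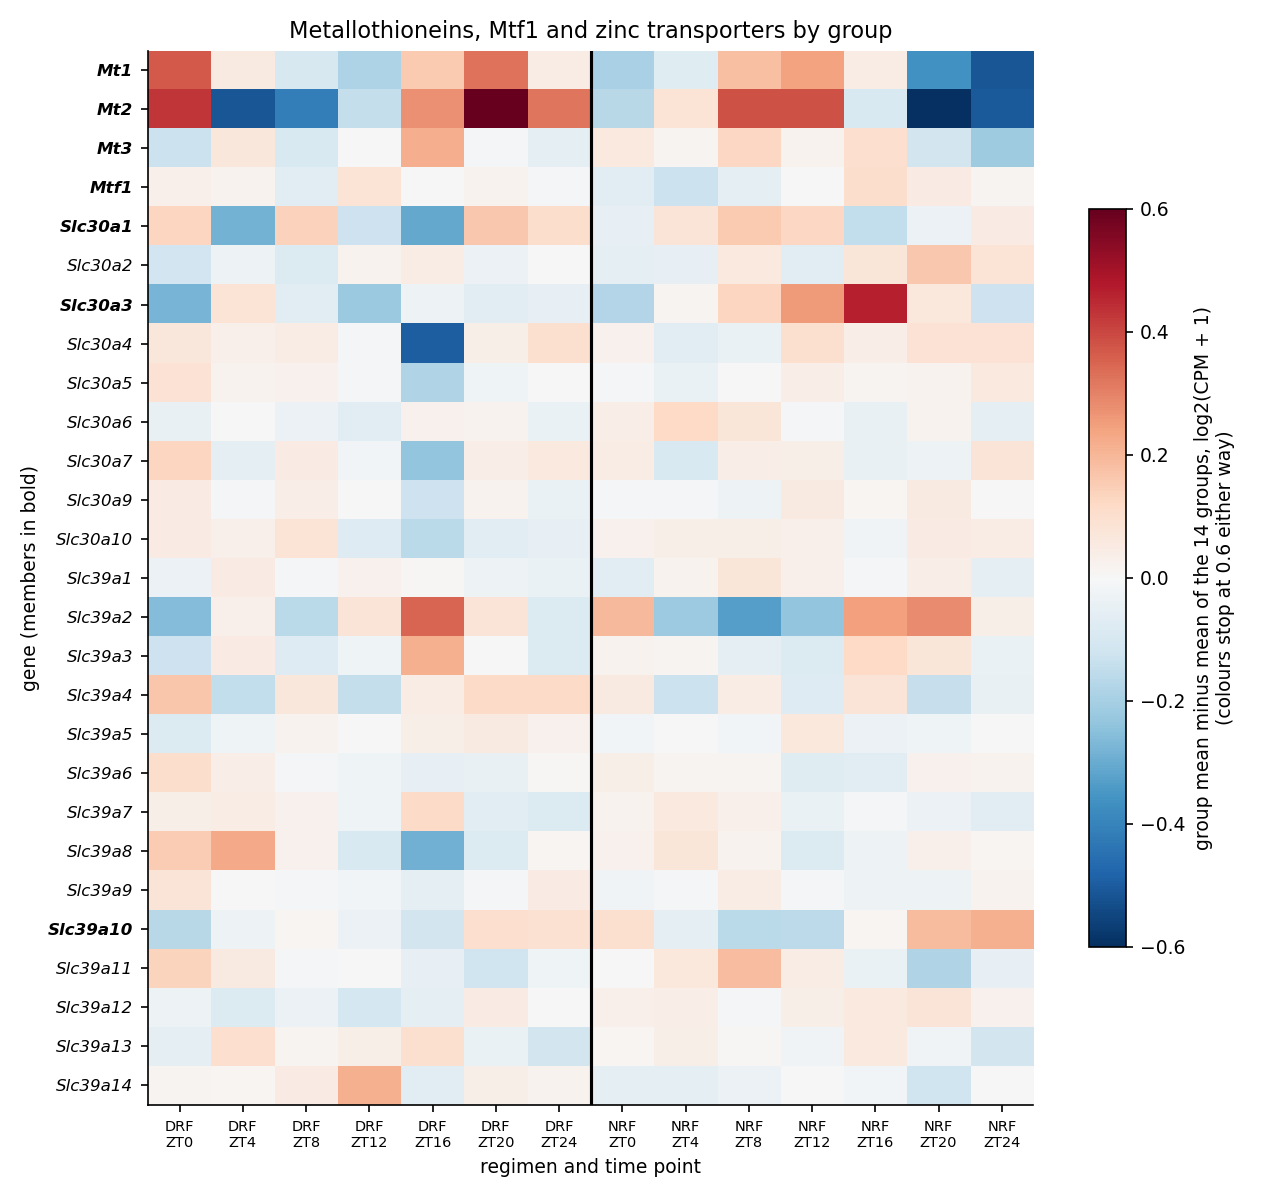
Group means of log2(CPM + 1) of 27 zinc genes minus the mean of the 14 groups, 1 row per gene (members in bold) and 1 column per regimen and time point, with red above and blue below the mean. Mt1 and Mt2 hold the widest bands, reversed between the DRF columns on the left and the NRF columns on the right, and most other rows stay pale.

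Genes linked to metallothioneins by other inputs were counted in the same way. Of 10 copper-handling genes, 4 were rhythmic in NRF and 0 in DRF, and of 8 NRF2 target genes of the oxidative stress response, 4 in NRF and 0 in DRF. Of 14 glucocorticoid-responsive genes, 12 were rhythmic in NRF and 5 in DRF, beside the background of 30.7% and 1.03%, with a median amplitude of 0.26 in both regimens. In the mean level 5 of these 14 were higher in DRF, beside 5.63% of all genes, and 0 lower, with a median of 0.12. Without the 2 libraries that stood apart 8 were higher, beside 10.4% of all genes in either direction. At ZT0, where 4.5% of all genes passed, 5 of 14 were higher in DRF, including Tsc22d3, Sult1a1, Per1 and Plin4, and at ZT12, where 1.5% passed, 2 of 14 were lower, Tsc22d3 and Sgk1. Without these libraries the counts were 5 and 3, beside 7.28% of all genes at ZT0 and 4.27% at ZT12. They were then 0 of 14 at ZT4 (6.53% of all genes), ZT8 (0.78%) and ZT16 (0.206%), close to those shares. At ZT20 and ZT24 1 of 14 was then higher in DRF (Plin4), beside 2.28% and 0.605% of all genes. Of those rhythmic in both regimens, Tsc22d3 peaked at ZT15.9 in DRF and ZT14.4 in NRF and Fkbp5 at ZT17.2 and ZT15.7. Plin4 peaked at ZT18.0 in DRF and ZT15.5 in NRF, and Sult1a1 at ZT20.0 and ZT17.5. In the mean level 0 of the 10 copper-handling and 0 of the 8 NRF2 genes passed in limma, beside 10.6% of all genes. Without the libraries 1 copper-handling gene did (Atox1, lower in DRF), beside 10.4%. None of these counts was tested against Mt1 or Mt2.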

How the data were processed

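RNA of 56 mouse anterior hypothalami was sequenced as poly(A) paired reads. Per the labels and methods, the authors mapped the reads with HISAT2 to GRCm38.p6, aligned them to coding genes with Bowtie2, estimated reads with RSEM and normalized them by trimmed mean of M-values. They deposited 1 score per gene and mouse, named TPM. These scores are log2(CPM + 1) per unit of gene length, scaled so that each mouse has an equal total, so they compress fold changes. Undoing these steps with GENCODE vM21 lengths gave log2(CPM + 1). The steps held with a median relative deviation of 2.09e-08 in 728 low genes. Reads came out whole, within 0.05, in 14320 genes with an annotated length. The members' reads were whole within 0.00214 in all mice, except for Mtf1, whose estimated reads hold decimals. Symbols were taken from RefSeq for 17456 of 17564 identifiers, and promoter windows from RefSeq on GRCm38.p6.

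Genes were kept whose score reached 1 in 80% of mice or more. Differences were fitted in limma 3.58.1 (R 4.3.3) with a mean for each of 14 groups, a trended prior and Benjamini-Hochberg adjustment over 16026 genes. Rhythm was tested on the scores by JTK_CYCLE (20, 24 and 28 h) and Lomb-Scargle (20 to 28 h), combined by Fisher's method over 16245 transcripts, and described by a 24 h cosine. Covariation used deviations from group means and 100000 permutations. Scripts were tested on simulated data. Members were all named, zinc genes outside it if they passed a test, and like genes as the 5 with the highest correlation of group means. The members and lists were chosen with earlier results of these data known. Per the methods the mice were group housed, and the labels do not say which mice shared a cage or batch. The p-values measure the spread between mice and take each mouse as independent. An effect of a shared cage or batch could not be separated. Alternatives covered replicate omission, the replicate number as a block, other pseudocounts, quantile normalization, no filter, omission of ZT24 and of 2 libraries, and, chosen after seeing the data, voom, removal of GC trends and dawn counted once.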

Additional observations from a re-analysis of the deposited data

Results flagged for a closer look

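In 5 of 98 groups of 4 mice tested (7 genes in 14 groups), 1 mouse lay far from the other 3 by Dixon's criterion at the 95% level, about as many as the 1 in 20 that chance gives. Mt1 was 268.8 CPM in replicate 2 of DRF at ZT4, against 207 to 216 CPM in the other 3, and 252.4 CPM in replicate 1 of DRF at ZT8, against 186 to 191 CPM. Mt1 was 179.3 CPM in replicate 2 of NRF at ZT24, against 141 to 146 CPM. Mt3 was 110.6 CPM in replicate 1 of DRF at ZT20, against 124 to 125 CPM, and Slc30a3 was 4.498 CPM in replicate 4 of the same group, against 5.44 to 5.56 CPM. The daily rhythm of Slc39a10 differed between DRF and NRF (limma F test, adjusted p = 0.02258).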

How the results depend on the processing

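Without the 2 libraries that stood apart, the calls for DRF minus NRF went from 721 to 1167 at ZT0, 631 to 1046 at ZT4, 28 to 125 at ZT8, 241 to 684 at ZT12, 3245 to 33 at ZT16, 182 to 365 at ZT20 and 44 to 97 at ZT24, and those for ZT24 minus ZT0 from 79 to 169 in DRF and 338 to 1107 in NRF. With the GC trend of each library removed they were 1330, 1211, 84, 580, 1445, 451 and 78 at the 7 time points and 301 and 927. On the deposited values with a pseudocount of 1 or 0.1 there were 4 calls at ZT8 and 117 at ZT12 with either, and 33 or 35 for ZT24 minus ZT0 in DRF. Quantile normalization gave 402 at ZT4. Without ZT24 there were 3 at ZT8, 1156 differences in rhythm in place of 1766, and 96 rhythmic transcripts in DRF in place of 167, a count that was 109 by JTK_CYCLE alone and 651 by the cosine fit. Leaving out 1 replicate number at a time gave 400 to 2348 calls for the mean level (1692 with all), 124 to 533, 59 to 191, 0 to 65, 3 to 851, 23 to 4970, 11 to 103 and 6 to 25 at the 7 time points, 0 to 103 and 0 to 1 for ZT24 minus ZT0 in DRF and NRF, 425 to 1605 differences in rhythm, and 63 to 85 and 2617 to 3905 rhythmic transcripts in DRF and NRF. Of 49 pairs, 5 covaried, and 2 to 4 without a replicate, 3 without the libraries that stood apart, 1 in DRF alone, 3 in NRF alone and 9 on the deposited values. Of 376 alternative values for single genes, 310 kept direction and call, 56 lost the call, 9 gained one and 1 reversed, the mean level of Slc30a1 without replicate 4 (0.0045, adjusted p = 0.960, with a range of -0.09315 to 0.0045 over the 4 omissions). The cause of these changes was not tested.

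Replicate numbers did not pair the mice: deviations of mice with the same number had a median correlation of 0.0023, and 15 of 56 mice correlated best with their own number. With the replicate number as a block, limma called 1750 genes for the mean level, 717, 647, 28, 245, 3239, 182 and 44 at the 7 time points, 72 and 428 for ZT24 minus ZT0 in DRF and NRF and 1698 differences in rhythm, and no call of a member changed. Slc30a3 had the fewest reads of the members, 91 in the lowest mouse, and a within-group SD of 0.25 on the log2 scale in DRF, against 0.07 for Mtf1.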
